A study of Mus musculus with 30 samples.

Results

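The regional difference of the 12 h response to lipopolysaccharide (LPS) is the change in the hippocampus minus the change in the frontal cortex, measured gene by gene. It compares 14 of the 30 RNA-seq libraries of the study over all 17650 genes that passed a filter on low counts, of 48820 listed. The fit that gave the p values took in all 30 libraries. All animals were adult male wild type C57BL/6J mice, 8 to 12 weeks old when obtained, used as a model of Gulf War Illness. Every mouse, controls included, had drunk corticosterone (CORT) at 200 mg/L in 0.6% ethanol for 7 days and had received diisopropyl fluorophosphate (DFP), an inhibitor of acetylcholinesterase, at 4 mg/kg into the peritoneum on day 8. Courses of CORT of 7 days then followed in alternate weeks until 5 weeks had passed. The challenge was saline, with tissue taken 6 h later (3 libraries per tissue), or LPS at 0.5 mg/kg under the skin, with tissue taken 12 h later (4 libraries per tissue). A mouse without CORT and DFP was not analysed here. Because no saline tissue was taken at 12 h, LPS and the time of collection cannot be told apart in either tissue's change. Mice A224, A226, A258, A259, A260 and A261 gave both tissues, whereas A222 gave the hippocampal and A223 the cortical library of the third saline sample.

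LPS is a component of the outer membrane of Gram-negative bacteria that is sensed by Toll-like receptor 4. After a peripheral dose, blood vessel cells, border macrophages and microglia pass the signal into the brain through cytokines, prostaglandins and interferons, and astrocytes and neurons change their expression later. The hippocampus is rich in glucocorticoid receptors and holds the densely packed granule and pyramidal cells of the memory circuit, while the frontal cortex is a layered tissue with long-range projection neurons. The question the comparison addresses is whether the 2 regions answered the same challenge differently.

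The 14 libraries held 16826882 to 33034295 counts. The tissue labels matched their defining markers: 10 hippocampal formation markers summed to 837 to 987 CPM (counts scaled to library size) in the hippocampal libraries and 95.2 to 113 CPM in the cortical ones, and 10 neocortical layer markers to 186 to 225 and 393 to 480 CPM. Some libraries stood apart in markers of neighbouring tissue. The 12 choroid plexus markers summed to 1333 CPM in hippocampus saline A222, 2492 CPM in hippocampus LPS A261, 1080 CPM in cortex saline A224 and 365 CPM in cortex LPS A258, and the other 10 libraries lay lower. The 12 striatal neuron markers summed to 283 to 1358 CPM in the cortical saline libraries, highest in A224, and to 463 to 679 CPM in the cortical LPS libraries. These tissues are bulk samples, so fewer cells of a type and less RNA per cell cannot be told apart.

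**Figure D1:**
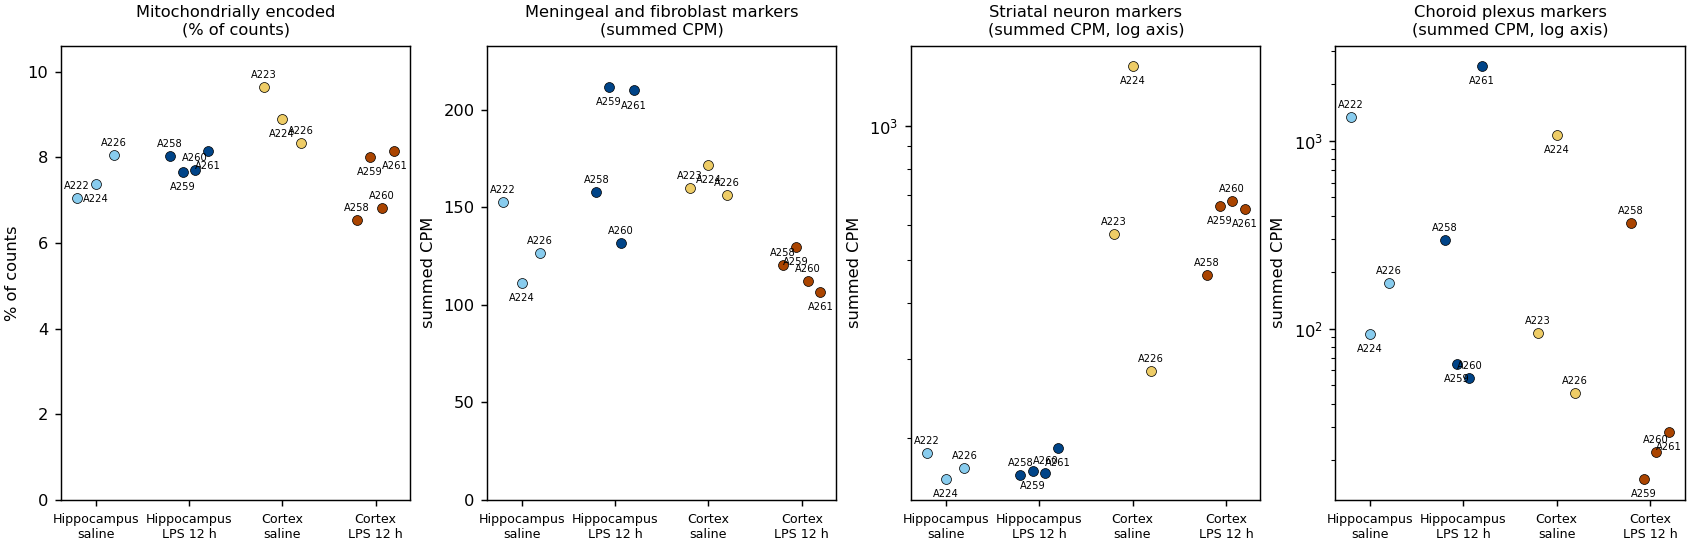
Mitochondrially encoded counts (percent of all counts) and summed CPM of meningeal, striatal and choroid plexus markers in each of the 14 libraries; each point is a library labelled with its mouse, and the 2 right panels have log axes. The mitochondrial share was 8.33 to 9.64% in cortex saline and 6.54 to 8.15% in cortex LPS, and choroid plexus markers were highest in hippocampus A261.

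Many genes changed in the same direction in both tissues, and a difference between the tissues passed the test in few. In the hippocampus 830 genes rose (4.7% of genes tested) and 721 fell (4.08%), and in the cortex 1048 rose (5.94%) and 875 fell (4.96%), by edgeR's quasi-likelihood test with Benjamini-Hochberg adjusted p under 0.05. Of these, 526 rose in both tissues and 338 fell in both, which together made up 55.7% of the hippocampal and 44.9% of the cortical calls. The median absolute log2 fold change of these 864 genes was 0.78 in each tissue, with the larger value in the hippocampus for 451 genes and in the cortex for 413. The difference between the tissues itself passed for 17 genes (0.0963% of genes tested). For 7 (0.0397%) the change was more positive in the hippocampus, and for 10 (0.0567%) it was more positive in the cortex. All 17 are protein coding. Over all genes the median difference was -0.0023 on the log2 scale. At an unadjusted p under 0.05 there were 1744 genes, or 9.88%.

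Few genes called in 1 tissue alone passed the test of the difference. There were 1740 genes called in 1 tissue alone, and the difference passed for 11 of them: 5 of the 684 called in the hippocampus alone and 6 of the 1056 called in the cortex alone. Of the genes called in the cortex alone, 865 had the same sign in the hippocampus, and of those called in the hippocampus alone, 552 had the same sign in the cortex. The share of all genes with the same sign was not counted, and 6 mice gave both tissues, so these counts have no background beside them. Only 3 genes passed in both tissues in opposite directions, Coch, Epop and Rprm, and all 3 were among the 17. Opposite changes add up in the difference and come from the same fit, so this was close to given. The precision of the difference set what could be seen. Its median standard error was 0.16 on the log2 scale, 0.10 for the 5874 genes with a mean log2 CPM of 5 or more and 0.49 for the 3921 genes under 1. The 95% interval of the difference lay within 1 log2 unit of 0 for 13934 genes (78.9%). Scaling by library totals alone, in place of TMM, moved the share of rises among the calls from 53.5% to 69.4% in the hippocampus and from 54.5% to 80.7% in the cortex.

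**Figure D2:**
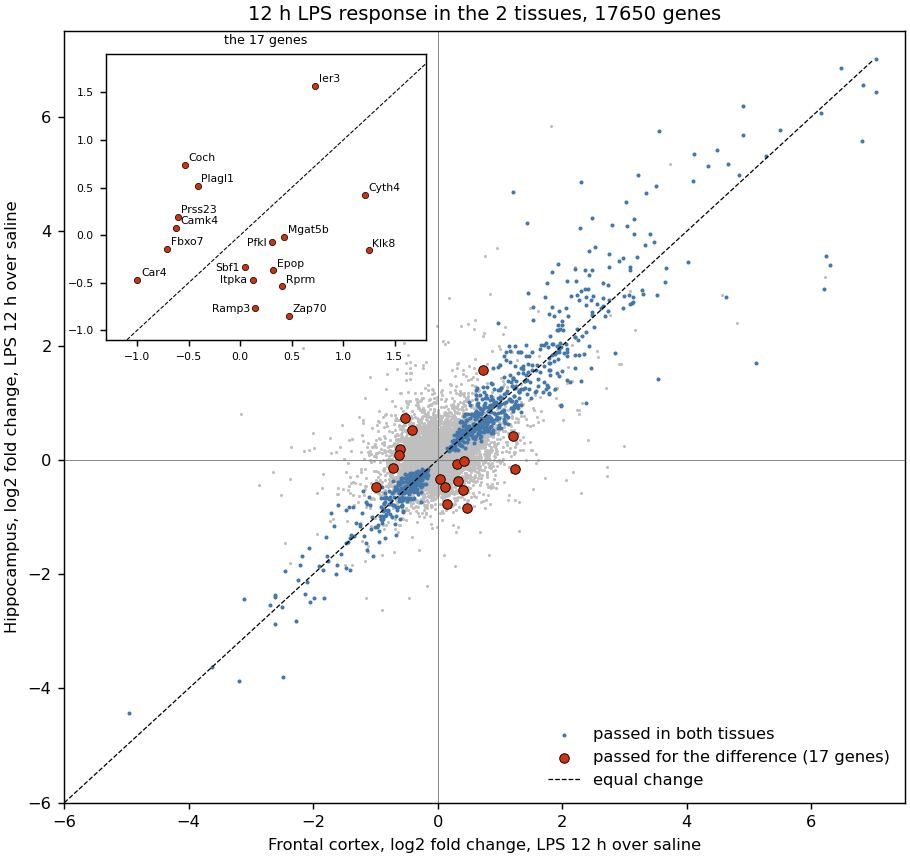
Log2 fold change 12 h after LPS over saline in the frontal cortex (x axis) and the hippocampus (y axis) for 17650 genes; blue points passed in both tissues, red points are the 17 genes whose difference passed, named in the inset, and the dashed line marks equal change. The red points lie away from the line but close to 0, with cortical changes from -0.998 to 1.25.

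The number of genes depended on how the mice and libraries entered the fit. With the mouse as a fixed effect, which compares the tissues within each animal and draws nothing for the difference from A222 and A223, 8 genes passed (0.0453%), 6 more positive in the hippocampus and 2 in the cortex. Of the 17 genes, Coch, Camk4, Fbxo7 and Itpka passed there. The other 13 had the same sign and adjusted p values of 0.0801 to 0.334. DESeq2 called 77 genes, the 17 among them, of 13620 given an adjusted p. Limma-voom with quality weights called 147 of 17650, without Plagl1 and Klk8. A fit of the 14 libraries alone called Rprm and no other gene, with 1507 genes at an unadjusted p under 0.05. Leaving out 1 library gave between 2 genes (without cortex saline A223, Itpka and Rprm) and 34 (without cortex LPS A259). The number was 6 without hippocampus saline A222, 4 without hippocampus saline A224, 10 without hippocampus saline A226, 9 without cortex saline A226, 9 without hippocampus LPS A259, 11 without cortex LPS A260, 6 without hippocampus LPS A261 and 9 without cortex LPS A261. It was 15 without cortex saline A224, 12 without hippocampus LPS A258, 19 without cortex LPS A258 and 21 without hippocampus LPS A260. Without both hippocampus saline A222 and cortex saline A223, the number was 0. Without the 3 libraries highest in choroid plexus markers (hippocampus A222 and A261, cortex A224) it was 3, namely Fbxo7, Itpka and Zap70.

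**Figure D3:**
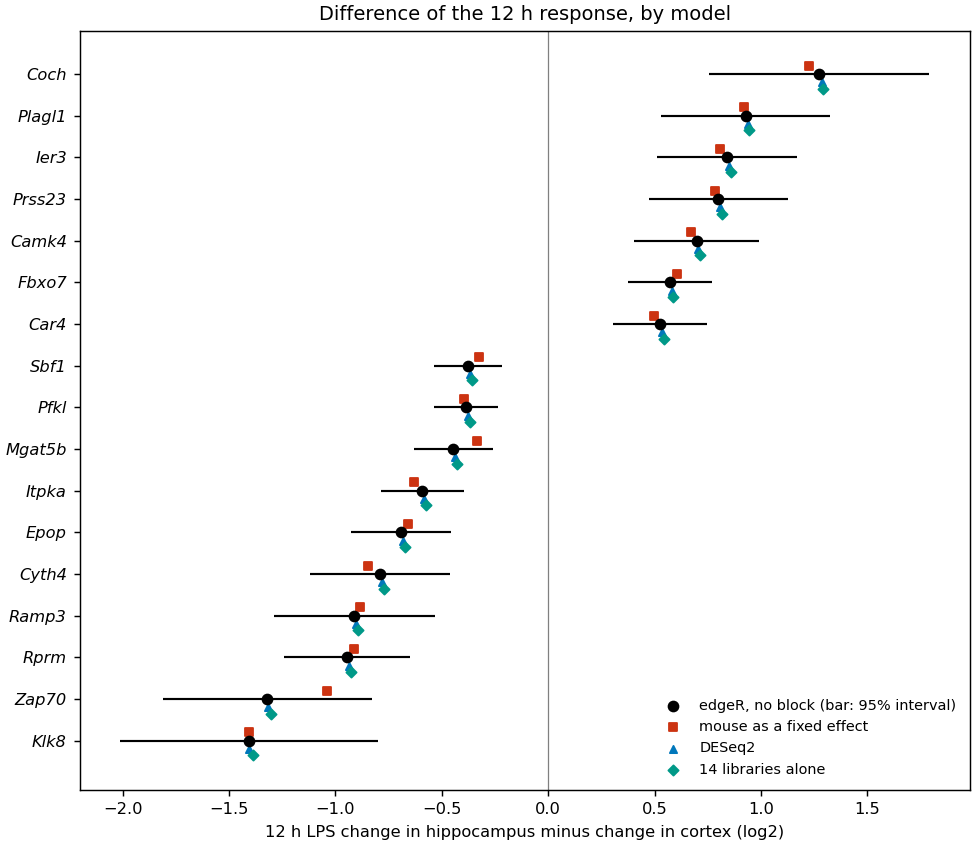
Difference of the 12 h LPS change, hippocampus minus cortex (log2), for the 17 genes; black points and bars are edgeR estimates and 95% intervals, and coloured symbols are estimates with the mouse as a fixed effect, from DESeq2 and from the 14 libraries alone. The estimates of a gene lay on 1 side of 0 in each of these fits, from -1.41 for Klk8 to 1.27 for Coch.

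Values of the 17 genes are given below in CPM for each library, saline in the order A222, A224, A226 in the hippocampus and A223, A224, A226 in the cortex, and LPS in the order A258 to A261. Log2 values carry the standard error (SE) of the edgeR fit, and each gene's coordinates are on GRCm38. In 9 of the 17 genes the saline and LPS libraries of the hippocampus did not overlap, and in 13 those of the cortex did not, against 20.1% and 17.4% of all genes. The genes were chosen by the difference, so these counts describe them. Among the 17, the gap between tissues was smaller after LPS than after saline in 11 genes and larger in 6, and in Rprm it changed sign. In 10 of the 17 the adjusted p was 0.04 or more, close to the threshold, and the next gene by p, Adamts9, stood at 0.0502.

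**Figure D4:**
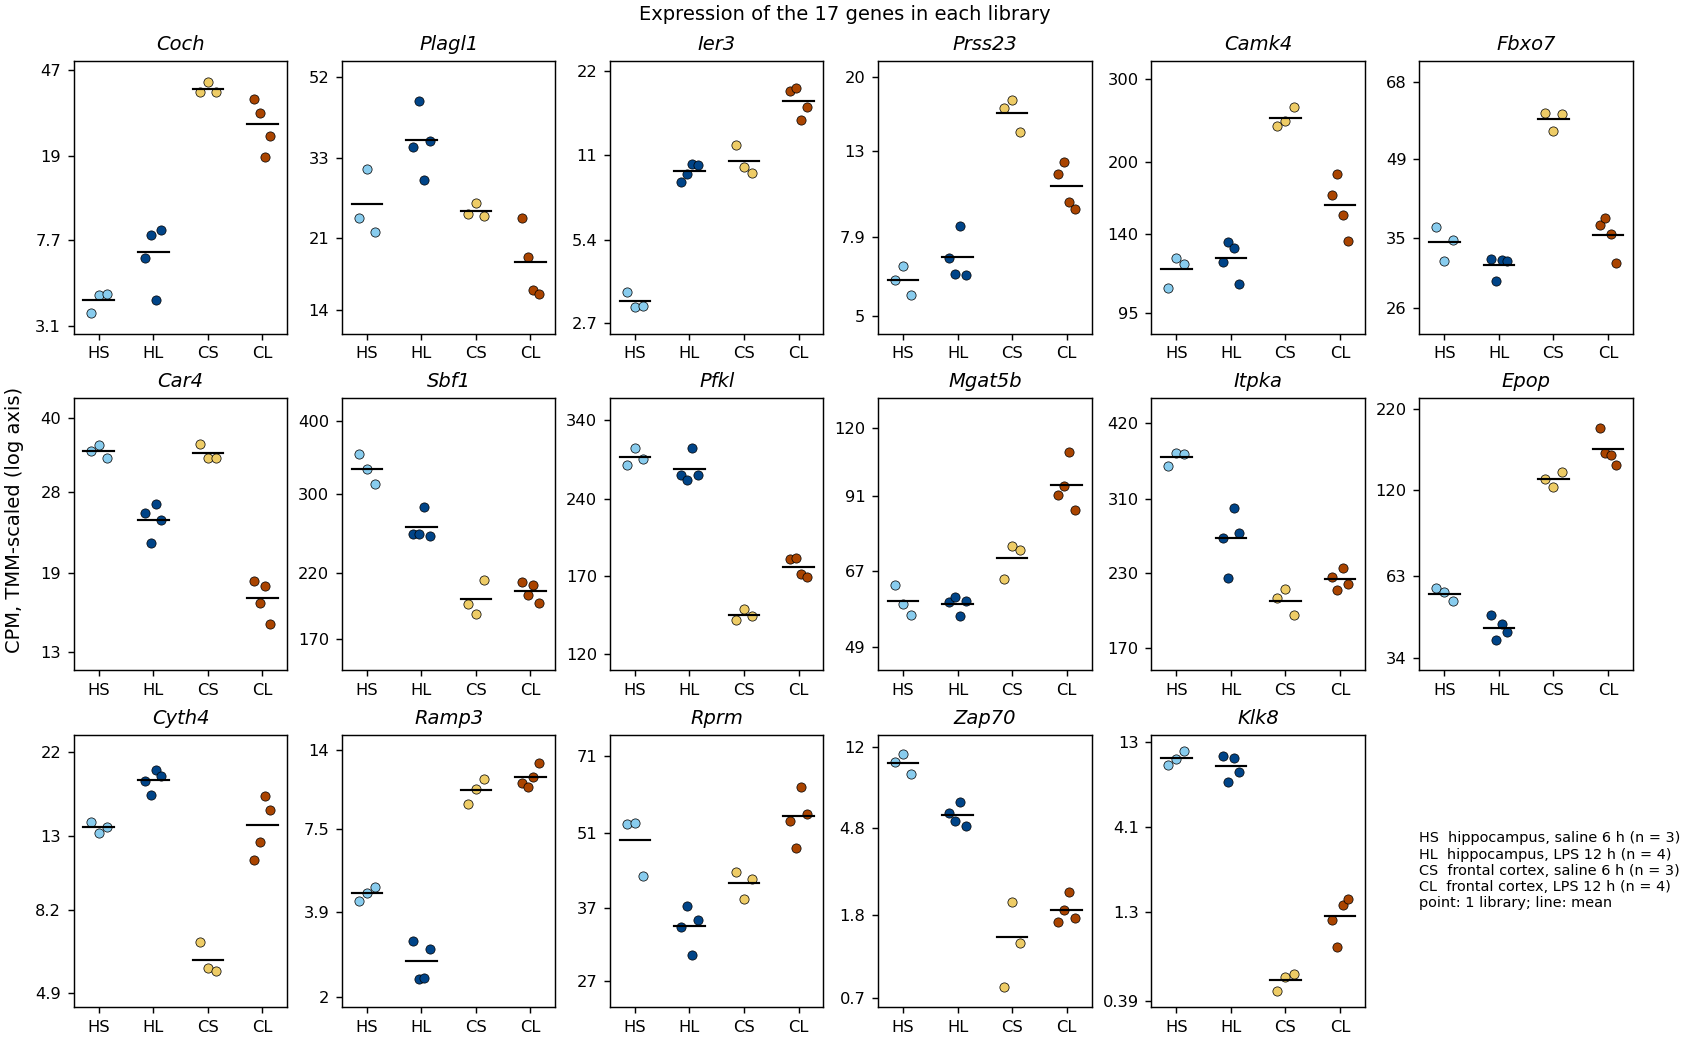
CPM (log axis, scaled per panel) of the 17 genes in each library; each point is 1 library and each line a group mean, for hippocampus saline (HS, n = 3), hippocampus LPS (HL, n = 4), cortex saline (CS, n = 3) and cortex LPS (CL, n = 4). Coch, Prss23, Camk4 and Fbxo7 fell in the cortex towards the lower hippocampal level, while Rprm fell in the hippocampus and rose in the cortex.

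The first group comprises genes of secreted proteins. Coch encodes cochlin, a protein of the extracellular matrix (ENSMUSG00000020953.16, chromosome 12, 51593341 to 51605771). In the hippocampus it stood at 3.57, 4.28 and 4.33 CPM after saline and at 6.36, 8.14, 4.08 and 8.61 CPM after LPS. Cortical libraries had 37.4, 41.6 and 37.3 CPM after saline and 34.8, 29.9, 18.7 and 23.4 CPM after LPS. It rose in the hippocampus, where LPS A260 stayed within the saline range, and fell in the cortex, where each LPS library was below each saline library. The changes were 0.74 ± 0.20 and -0.53 ± 0.15 on the log2 scale (edgeR adjusted p = 0.0166 and 0.0209), and their difference of 1.27 ± 0.25 had a 95% interval of 0.76 to 1.79 (adjusted p = 0.0427, and 0.0392 with the mouse as a fixed effect). The cortical level was 9.55 times the hippocampal one after saline and 3.93 times after LPS. Coch passed in 4 of the 14 fits that left out a library, with the highest adjusted p of 0.132 without hippocampus saline A222.

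Prss23 encodes a secreted serine protease (ENSMUSG00000039405.7, chromosome 7, 89507783 to 89527187). Its hippocampal values were 6.16, 6.68 and 5.65 CPM after saline and 6.99, 6.38, 8.43 and 6.35 CPM after LPS. The cortical values were 16.7, 17.5 and 14.5 CPM after saline and 11.4, 12.2, 9.69 and 9.28 CPM after LPS. The groups overlapped in the hippocampus (log2 change 0.19 ± 0.12, adjusted p = 0.4) and were apart in the cortex, where Prss23 fell by 0.61 ± 0.11 on the log2 scale (adjusted p = 0.000176). The difference was 0.80 ± 0.16 (adjusted p = 0.0427, and 0.154 with the mouse as a fixed effect). It passed in 6 of 14 fits without a library, with the highest adjusted p of 0.118 without cortex saline A223.

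Klk8, which encodes the secreted serine protease neuropsin (ENSMUSG00000064023.4, chromosome 7, 43797577 to 43803826), had the largest difference of the 17. In the hippocampus it was at 9.51, 10.4 and 11.6 CPM after saline and at 10.8, 7.58, 10.5 and 8.69 CPM after LPS. Its cortical values were 0.447, 0.536 and 0.561 CPM after saline and 1.17, 0.805, 1.43 and 1.54 CPM after LPS. Each hippocampal library was above each cortical one, and the cortical values rested on 36 counts in the 3 saline libraries together and 113 in the 4 LPS libraries. It rose by 1.25 ± 0.26 on the log2 scale in the cortex (adjusted p = 0.00137) and changed by -0.16 ± 0.13 in the hippocampus (adjusted p = 0.594). The difference of -1.41 ± 0.30 (95% interval -2.01 to -0.80) had an adjusted p of 0.0487, of 0.163 with the mouse as a fixed effect, and of 0.184 without cortex saline A223. It passed in 3 of 14 fits without a library.

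A pair of genes act at the cell surface of vessels and neighbouring cells. Car4 encodes carbonic anhydrase 4, an enzyme anchored to the outer membrane of brain capillaries (ENSMUSG00000000805.18, chromosome 11, 84957786 to 84966044). After saline it was level between the tissues, at 34.1, 35.2 and 32.9 CPM in the hippocampus and 35.2, 32.99 and 33.01 CPM in the cortex. After LPS it was at 25.3, 21.9, 26.5 and 24.5 CPM in the hippocampus and at 18.3, 16.5, 17.9 and 14.9 CPM in the cortex. Car4 fell in both tissues without overlap, by 0.47 ± 0.08 on the log2 scale in the hippocampus (adjusted p = 3.93e-05) and to 0.501 times the saline level in the cortex (adjusted p = 8.17e-11). The difference was 0.53 ± 0.11 (95% interval 0.31 to 0.75; adjusted p = 0.0427, and 0.148 with the mouse as a fixed effect). It passed in 4 of 14 fits without a library, with the highest adjusted p of 0.121 without cortex saline A223.

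Ramp3 encodes a receptor activity-modifying protein, which sets the ligand preference of calcitonin-family receptors (ENSMUSG00000041046.7, chromosome 11, 6658521 to 6677475). Hippocampal Ramp3 fell from 4.27, 4.52 and 4.76 CPM to 3.10, 2.31, 2.32 and 2.91 CPM. Cortical Ramp3 was at 9.09, 10.2 and 11.1 CPM after saline and at 10.7, 10.5, 11.3 and 12.6 CPM after LPS. The hippocampal groups were apart (log2 change -0.76 ± 0.14, adjusted p = 0.00032) and the cortical groups overlapped (0.15 ± 0.12, adjusted p = 0.493). The difference was -0.91 ± 0.19 (adjusted p = 0.0427, and 0.21 with the mouse as a fixed effect), and the cortical level went from 2.25 to 4.23 times the hippocampal one. It passed in 4 of 14 fits without a library, with the highest adjusted p of 0.184 without cortex saline A223.

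Several of the 17 genes encode enzymes of neuronal signalling and metabolism, and Sbf1, given last here, encodes an inactive relative of an enzyme family. Camk4 encodes calcium/calmodulin-dependent protein kinase IV, a nuclear kinase that acts on CREB. Its hippocampal values were 107.5, 125 and 121 CPM after saline and 122, 135, 131 and 109.8 CPM after LPS. Cortical Camk4 fell from 239, 245 and 262 CPM to 170, 189, 154 and 135 CPM. The cortical groups were apart (log2 change -0.62 ± 0.10, adjusted p = 6.01e-05) and the hippocampal groups overlapped (0.08 ± 0.10, adjusted p = 0.761). The difference was 0.70 ± 0.14 (adjusted p = 0.0442, and 0.0276 with the mouse as a fixed effect). It passed in 3 of 14 fits without a library, with the highest adjusted p of 0.139 without cortex saline A226.

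Itpka encodes inositol-trisphosphate 3-kinase A, an enzyme of dendritic spines that removes the calcium-releasing messenger IP3 (ENSMUSG00000027296.7, chromosome 2, 119742337 to 119751263). Hippocampal Itpka fell from 354, 372 and 371 CPM to 265, 225, 299 and 269.9 CPM. Cortical Itpka was at 207.5, 215 and 194 CPM after saline and at 226.2, 215, 235 and 219.5 CPM after LPS. The hippocampal libraries were apart and the cortical ones overlapped, with changes of -0.47 ± 0.07 (adjusted p = 7.58e-06) and 0.12 ± 0.07 (adjusted p = 0.273). The difference of -0.59 ± 0.09 (95% interval -0.78 to -0.40) had an adjusted p of 0.00546, and of 0.0259 with the mouse as a fixed effect. Within mice, Itpka was higher in the hippocampus than in the cortex by 0.79 and 0.94 log2 units in the saline mice A224 and A226 and by 0.23, 0.07, 0.35 and 0.30 in the LPS mice A258 to A261. Itpka passed in all 14 fits that left out 1 library, with adjusted p up to 0.0429. It did not pass in the fit of 14 libraries alone (adjusted p = 0.0895).

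Pfkl encodes the liver-type phosphofructokinase, which controls a committed step of glycolysis (ENSMUSG00000020277.9, chromosome 10, 77986947 to 78010083). Hippocampal Pfkl was at 279, 300.7 and 286 CPM after saline and at 267, 260.8, 300.4 and 266 CPM after LPS. Cortical Pfkl rose from 139.7, 147 and 142 CPM to 183, 184, 172 and 169 CPM. The cortical rise of 0.31 ± 0.05 on the log2 scale (adjusted p = 8.54e-05) had no overlap between groups, and the hippocampal change was -0.08 ± 0.05 (adjusted p = 0.461). The difference was -0.39 ± 0.07 (adjusted p = 0.0263, and 0.163 with the mouse as a fixed effect). It passed in 7 of 14 fits without a library, with the highest adjusted p of 0.161 without cortex saline A223.

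Mgat5b encodes a brain N-acetylglucosaminyltransferase that branches glycans (ENSMUSG00000043857.16, chromosome 11, 116918863 to 116986948). Its hippocampal values were 63.2, 58.4 and 56.0 CPM after saline and 59.0, 60.1, 55.8 and 59.1 CPM after LPS. Cortical Mgat5b rose from 64.6, 74.0 and 72.9 CPM to 91.1, 94.5, 108.5 and 85.7 CPM. The cortical groups were apart (log2 change 0.43 ± 0.06, adjusted p = 1.81e-05), and the hippocampal change was -0.02 ± 0.06 (adjusted p = 0.929). The difference of -0.45 ± 0.09 had an adjusted p of 0.0427, of 0.334 with the mouse as a fixed effect, and of 0.235 without cortex saline A223. Mgat5b passed in 3 of 14 fits without a library.

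Sbf1, which encodes a catalytically inactive member of the myotubularin phosphatase family, had the smallest difference of the 17 (ENSMUSG00000036529.17, chromosome 15, 89288236 to 89315311). Hippocampal Sbf1 fell from 351, 332 and 313 CPM to 256, 257, 285 and 255 CPM. Cortical Sbf1 was at 195, 188 and 214 CPM after saline and at 213, 202, 209.7 and 195 CPM after LPS. The fall of 0.33 ± 0.06 on the log2 scale in the hippocampus (adjusted p = 6.85e-05) stood against 0.04 ± 0.06 in the cortex (adjusted p = 0.691), where the groups overlapped. The difference was -0.38 ± 0.08 (adjusted p = 0.0461, and 0.26 with the mouse as a fixed effect). Sbf1 passed in 3 of 14 fits without a library, with the highest adjusted p of 0.217 without cortex saline A223.

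A further group is known for roles in immune and stress signalling. Ier3 encodes an immediate early protein induced by NF-kB that affects cell survival (ENSMUSG00000003541.6, chromosome 17, 35821684 to 35822923). It rose in the hippocampus from 3.50, 3.10 and 3.12 CPM to 8.78, 9.34, 10.2 and 10.1 CPM. Cortical Ier3 rose from 11.9, 9.88 and 9.47 CPM to 18.7, 19.2, 14.7 and 16.3 CPM. No groups overlapped, and the level after LPS in the hippocampus was close to the cortical level after saline. The rise was 2.97-fold in the hippocampus (adjusted p = 9.52e-11) and 1.66-fold in the cortex (adjusted p = 9.42e-06). The log2 difference of 0.84 ± 0.16 had an adjusted p of 0.0296, and of 0.166 with the mouse as a fixed effect. Ier3 passed in 8 of 14 fits without a library, with the highest adjusted p of 0.121 without cortex saline A223.

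Cyth4 encodes cytohesin 4, an ARF exchange factor of blood cells and microglia (ENSMUSG00000018008.7, chromosome 15, 78597047 to 78622019). Hippocampal Cyth4 rose from 14.2, 13.3 and 13.8 CPM to 18.3, 16.8, 19.6 and 18.9 CPM. Cortical Cyth4 rose from 6.71, 5.72 and 5.61 CPM to 11.2, 12.5, 16.7 and 15.3 CPM. Both tissues rose without overlap, 1.34-fold in the hippocampus (adjusted p = 0.00893) and 2.32-fold in the cortex (adjusted p = 1.85e-08). The log2 difference of -0.79 ± 0.16 had an adjusted p of 0.0427, of 0.0959 with the mouse as a fixed effect, and of 0.163 without cortex saline A226. It passed in 3 of 14 fits without a library. The 16 homeostatic microglia genes summed to 681 to 691 CPM in hippocampus saline and 692 to 739 CPM in hippocampus LPS, and to 599 to 638 and 629 to 939 CPM in the cortex, and their part in the Cyth4 difference was not tested.

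Zap70 encodes a tyrosine kinase best known from T cell receptor signalling (ENSMUSG00000026117.10, chromosome 1, 36761798 to 36782818). In the hippocampus it fell from 10.1, 11.0 and 8.81 CPM to 5.68, 5.17, 6.43 and 4.88 CPM. In the cortex it was at 0.795, 2.08 and 1.31 CPM after saline and at 1.66, 1.89, 2.32 and 1.74 CPM after LPS. The hippocampal groups were apart, with LPS at 0.556 times the saline level (adjusted p = 5.55e-05), and the cortical groups overlapped (log2 change 0.47 ± 0.20, adjusted p = 0.13; 93 counts in the 3 saline libraries). Of 6 lymphocyte markers, 1 (Trbc2) passed the filter on low counts. Unlike Zap70, Trbc2 was higher in the cortex, with means of 15.5 CPM after saline and 13.1 CPM after LPS. In the hippocampus its means were 0.157 and 0.225 CPM. For Zap70 the difference was -1.32 ± 0.24, with a 95% interval of -1.81 to -0.83. Its edgeR adjusted p was 0.0185, and 0.135 with the mouse as a fixed effect. It passed in 9 of 14 fits without a library, with the highest adjusted p of 0.118 without cortex saline A223, the lowest of the cortical saline libraries.

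The last group is known for roles in the nucleus, the cell cycle and protein turnover. Rprm encodes Reprimo, a p53 target that arrests the cell cycle (ENSMUSG00000075334.2, chromosome 2, 54084093 to 54085552). In the hippocampus it fell from 53.1, 53.1 and 42.3 CPM to 34.1, 37.3, 30.2 and 35.1 CPM. In the cortex it rose from 43.1, 38.4 and 41.9 CPM to 53.8, 47.7, 62.2 and 55.2 CPM. The groups were apart in both tissues, in opposite directions, with changes of -0.54 ± 0.10 (adjusted p = 0.000451) and 0.41 ± 0.10 (adjusted p = 0.00742). The difference of -0.95 ± 0.15 (95% interval -1.24 to -0.65) had an adjusted p of 0.00546 and passed in all 14 fits that left out 1 library (adjusted p up to 0.0313) and in the fit of 14 libraries alone (0.0283). With the mouse as a fixed effect the adjusted p was 0.175. Within mice, the hippocampus exceeded the cortex by 0.47 and 0.01 log2 units in the saline mice A224 and A226, and the LPS mice A258 to A261 had values of -0.66, -0.35, -1.04 and -0.65.

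Epop encodes a protein that links Elongin BC to the Polycomb repressive complex PRC2 (ENSMUSG00000043439.5, chromosome 11, 97627389 to 97629702). Hippocampal Epop fell from 57.5, 55.6 and 52.2 CPM to 46.8, 38.7, 43.7 and 41.4 CPM. Cortical Epop rose from 130.4, 122 and 137 CPM to 191, 158, 156 and 145 CPM. Both tissues were without overlap, with log2 changes of -0.37 ± 0.08 (adjusted p = 0.00279) and 0.32 ± 0.08 (adjusted p = 0.00672). The difference was -0.69 ± 0.12 (adjusted p = 0.0072, 0.0801 with the mouse as a fixed effect). Epop passed in 13 of 14 fits without a library, and its adjusted p was 0.072 without cortex saline A223.

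Fbxo7 encodes an F-box protein that selects substrates for a ubiquitin ligase (ENSMUSG00000001786.14, chromosome 10, 86021972 to 86051873). Hippocampal Fbxo7 was at 36.7, 31.8 and 34.7 CPM after saline and at 32.0, 29.1, 31.9 and 31.7 CPM after LPS. Cortical Fbxo7 fell from 59.6, 55.4 and 59.4 CPM to 37.0, 38.1, 35.6 and 31.4 CPM. The cortical groups were far apart, with LPS at 0.611 times the saline level (adjusted p = 5.68e-09), and the hippocampal change was -0.14 ± 0.07 (adjusted p = 0.256). The difference was 0.57 ± 0.10 (95% interval 0.37 to 0.77; adjusted p = 0.0072, and 0.034 with the mouse as a fixed effect). Fbxo7 passed in 12 of 14 fits without a library, and its adjusted p was 0.0677 without hippocampus saline A224 and 0.0501 without cortex saline A223.

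Plagl1 encodes an imprinted zinc finger transcription factor (ENSMUSG00000019817.18, chromosome 10, 13060504 to 13131694). Hippocampal Plagl1 rose from 23.5, 31.1 and 21.8 CPM to 35.2, 45.5, 29.1 and 36.3 CPM, where LPS A260 lay within the saline range. Cortical Plagl1 was at 24.1, 25.6 and 23.9 CPM after saline and at 23.6, 18.8, 15.7 and 15.4 CPM after LPS. The changes were 0.52 ± 0.13 in the hippocampus (adjusted p = 0.0114) and -0.41 ± 0.14 in the cortex (adjusted p = 0.0547). The difference of 0.93 ± 0.19 had an adjusted p of 0.0487, of 0.0941 with the mouse as a fixed effect, and of 0.159 without hippocampus saline A226, and it passed in 4 of 14 fits without a library. The tissues stood at a ratio of 1.04 (hippocampus over cortex) after saline and of 1.99 after LPS.

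The other LPS times share the saline libraries with the 12 h comparison, so their values are set side by side and are no independent check. For Rprm the difference between tissues was -0.28 ± 0.15 at 6 h, -0.95 ± 0.15 at 12 h and -0.91 ± 0.15 at 24 h, and for Fbxo7 it was 0.24 ± 0.10, 0.57 ± 0.10 and 0.56 ± 0.10. Prss23 had 0.19 ± 0.16, 0.80 ± 0.16 and 0.96 ± 0.16, while Coch had 0.27 ± 0.26, 1.27 ± 0.25 and 0.38 ± 0.27. When the 12 h difference was set against the 6 h difference by edgeR, 0 of the 17 genes passed (lowest adjusted p = 0.23). In that contrast 14 had an unadjusted p under 0.05. Among all genes the difference passed at 6 h for 0 by edgeR, with 1031 (5.84%) at an unadjusted p under 0.05, and at 24 h for 22 (0.125%), with 1484 (8.41%).

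No member of the 38 gene and marker lists passed for the difference by edgeR. Of the 540 list genes tested, 77 (14.3%) had an unadjusted p under 0.05, 58 more positive in the hippocampus and 19 in the cortex, against 4.93% and 4.95% of all genes. The lists were chosen with earlier results of these data known, so these shares describe them and test nothing. Towards the hippocampus, the mitochondrially encoded genes gave 10 and the meningeal and fibroblast markers 8. DESeq2 called 9 list genes and edgeR with the mouse as a fixed effect called 4, namely Igtp, H2-T23, Adamts9 and Fkbp5. The 95% interval lay within 1 log2 unit of 0 for 365 of the 540. The list of acute phase genes and genes of NF-kB feedback held 23 members, of which 12 passed upwards in the cortex (background 5.94%), while in the hippocampus 9 rose (background 4.7%) and 1 fell: Nfkbia, which encodes an inhibitor of NF-kB (log2 change -0.57, adjusted p = 0.0128). Their median difference between tissues was -0.02, with 1 gene towards each tissue at an unadjusted p under 0.05. Of the 11 complement genes tested, 7 rose in the hippocampus and 6 in the cortex, with a median difference of 0.06 and 1 gene towards the hippocampus at an unadjusted p under 0.05.

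**Figure D5:**
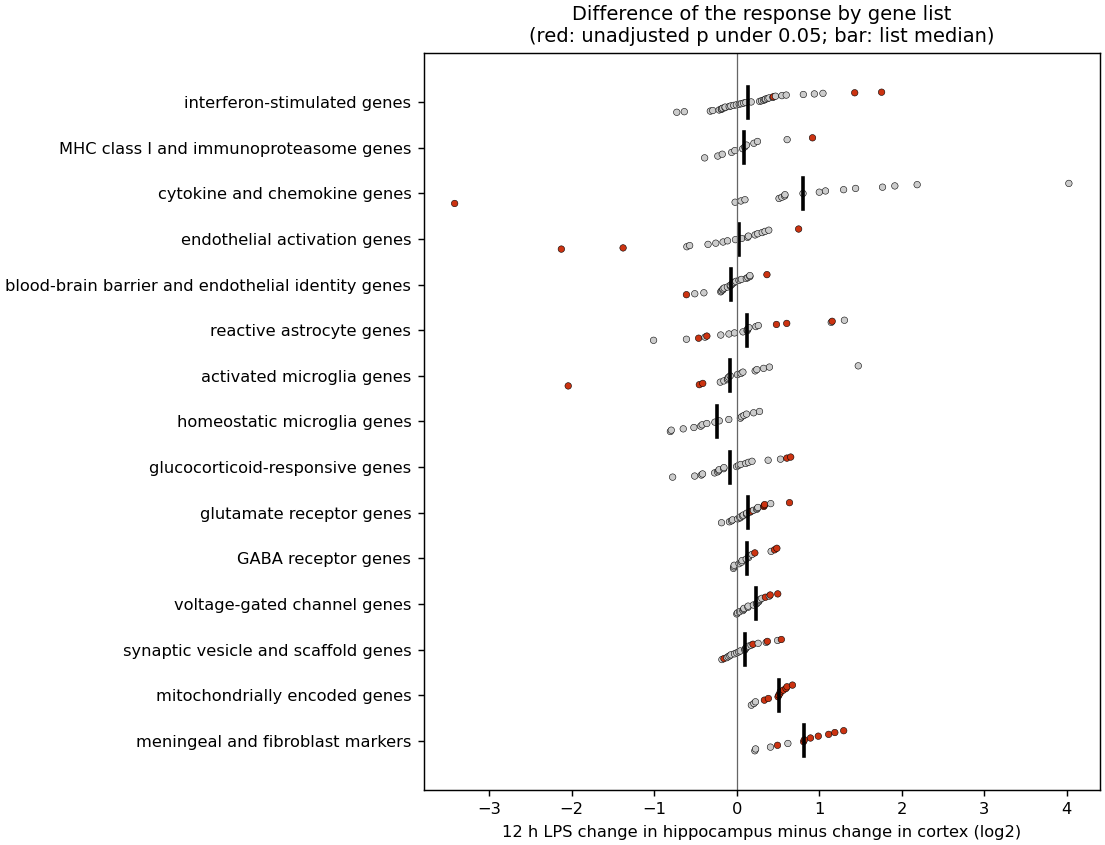
Difference of the 12 h LPS change, hippocampus minus cortex (log2), for each tested member of 15 lists; each point is a gene, red where the unadjusted p was under 0.05, and black bars are list medians. Of the lists drawn, the interferon-stimulated, MHC class I, endothelial, astrocyte and microglia lists have medians between -0.24 and 0.14. The medians of the mitochondrially encoded genes (0.51), the cytokine and chemokine genes (0.80) and the meningeal and fibroblast markers (0.82) lie higher.

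Interferon-stimulated genes encode antiviral effectors. Of 36, 34 rose in the hippocampus and 36 in the cortex, against 4.7% and 5.94% of all genes, and the median difference was 0.14. Towards the hippocampus and the cortex, 3 against 0 had an unadjusted p under 0.05 (4.93% and 4.95% of all genes). Igtp, an interferon-induced GTPase, was at 1.82, 1.67 and 1.64 CPM in hippocampus saline and 7.89, 10.4, 7.71 and 9.998 CPM in hippocampus LPS. In the cortex Igtp was at 5.81, 4.64 and 5.95 CPM and rose to 11.0, 12.6, 8.06 and 11.3 CPM. After LPS the tissues overlapped, and after saline the hippocampus was lower. The difference for Igtp was 1.43 ± 0.34 (95% interval 0.74 to 2.12; edgeR adjusted p = 0.0863, 0.00788 with the mouse as a fixed effect and 0.00639 by DESeq2). Of 12 MHC class I and immunoproteasome genes, which serve antigen presentation, 11 rose in each tissue. H2-T23, a nonclassical MHC class I gene with close relatives, was at 5.49, 4.66 and 6.08 CPM and then 11.0, 10.9, 8.15 and 9.38 CPM in the hippocampus, and at 30.1, 33.3 and 32.9 CPM and then 31.1, 30.7, 24.8 and 36.3 CPM in the cortex. It rose in the hippocampus (log2 change 0.86, adjusted p = 0.00039), the cortical change was -0.06 (adjusted p = 0.83), and the difference was 0.92 ± 0.21 (adjusted p = 0.069, and 0.0259 with the mouse as a fixed effect).

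Cytokine and chemokine genes call in and activate other cells. Of 17 tested, 13 rose in the hippocampus and 11 in the cortex, against 4.7% and 5.94% of all genes, and the median difference was 0.80. Towards the hippocampus and the cortex, 0 against 1 had an unadjusted p under 0.05 (4.93% and 4.95% of all genes). SEs were large here. The SE used is unstable where a difference is near 0 and counts are few, so the intervals below are approximate. Il1b, the cytokine interleukin-1 beta, was at 0.105, 0.0348 and 0.078 CPM in hippocampus saline and 0.946, 1.06, 1.64 and 1.43 CPM in hippocampus LPS. In the cortex Il1b was at 0.596, 0.298 and 0.343 CPM and then 3.19, 1.85, 2.32 and 0.689 CPM. The groups were apart in each tissue, and the difference of 1.77 ± 1.22 had a 95% interval of -0.75 to 4.28. Cxcl10, a chemokine induced by interferon, was at 0.035 to 0.234 CPM in hippocampus saline, 3.04 to 5.83 CPM in hippocampus LPS, 0.0595 to 0.149 CPM in cortex saline and 3.48 to 7.33 CPM in cortex LPS. Its difference was 0.05 (95% interval -2.01 to 2.11), and that of Lcn2, which encodes the acute phase protein lipocalin 2, was 0.15 (-1.74 to 2.04). Tnf, the cytokine tumour necrosis factor, lay at 0 to 0.0699 CPM in the saline libraries and 0.081 to 0.603 CPM in the LPS libraries of both tissues. Ccl2, a chemokine for monocytes, lay at 0 to 0.0994 and 1.04 to 1.89 CPM.

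Endothelial activation genes rose in 13 of 18 cases in the hippocampus and 11 of 18 in the cortex, against 4.7% and 5.94% of all genes. Their median difference was 0.023. Adamts9, a secreted metalloprotease that cleaves matrix proteoglycans, was at 8.08, 7.2 and 5.61 CPM in hippocampus saline and 16.1, 20.6, 20.5 and 17.4 CPM in hippocampus LPS. In the cortex Adamts9 was at 1.24, 1.49 and 1.12 CPM and rose to 13.3, 16.3, 19.7 and 9.72 CPM. The tissues were apart after saline and overlapped after LPS. The difference of -2.12 ± 0.44 (95% interval -3.03 to -1.22) had an adjusted p of 0.0502 by edgeR, 0.0234 with the mouse as a fixed effect and 3.91e-05 by DESeq2. Adamts1, a related protease, had -1.38 ± 0.44 (adjusted p = 0.261), and Lrg1, a secreted glycoprotein of inflamed vessels, had 0.75 ± 0.20 (adjusted p = 0.138). Among the 22 genes of endothelial identity and the barrier to blood, 6 fell in each tissue, and the median difference was -0.066. Of all genes, 4.08% fell in the hippocampus and 4.96% in the cortex.

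Some glial genes rose in both tissues and others fell. Of 14 astrocyte homeostasis genes, 2 rose and 4 fell in the hippocampus, and 1 rose and 6 fell in the cortex. Of 9 oligodendrocyte precursor genes, 0 rose and 2 fell in each tissue. Of 20 reactive astrocyte genes, 10 rose in the hippocampus and 9 in the cortex, with 3 against 2 at an unadjusted p under 0.05. Of all genes, 4.7% rose and 4.08% fell in the hippocampus, and 5.94% rose and 4.96% fell in the cortex. At an unadjusted p under 0.05 the shares of all genes were 4.93% towards the hippocampus and 4.95% towards the cortex. Gfap, the intermediate filament of astrocytes, was at 214, 194 and 294 CPM and then 526, 608, 516 and 517 CPM in the hippocampus. In the cortex Gfap was at 127, 109.98 and 131 CPM and then 291, 390.2, 281 and 249 CPM. It rose in both tissues without overlap, and the difference was -0.09 with a 95% interval of -0.54 to 0.35. Of 16 homeostatic microglia genes 3 rose in the hippocampus and 4 in the cortex, and 1, Mertk, fell in each tissue. The purinergic receptor gene P2ry12 had a difference of -0.79 (95% interval -2.09 to 0.50). Of 17 activated microglia genes 9 rose in the hippocampus and 10 in the cortex, with 0 against 3 at an unadjusted p under 0.05, among them Tyrobp, a signalling adaptor (-0.45 ± 0.21, adjusted p = 0.482), and the Fc receptor gene Fcgr3 (-0.41 ± 0.19, adjusted p = 0.479).

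Glucocorticoid-responsive genes fell in both tissues, 17 of 20 in the hippocampus, where 1 rose, and 13 of 20 in the cortex. Of all genes, 4.08% and 4.96% fell. The median difference of the list was -0.078. Fkbp5, a co-chaperone that restrains the glucocorticoid receptor, was at 163, 139 and 117 CPM and then 83.0, 68.9, 81.7 and 71.9 CPM in the hippocampus. In the cortex Fkbp5 was at 99.1, 116 and 81.2 CPM and then 38.4, 36.1, 39.3 and 27.8 CPM. The fall was -0.87 ± 0.12 and -1.48 ± 0.13 on the log2 scale. The difference of 0.61 ± 0.18 (95% interval 0.24 to 0.98) had an adjusted p of 0.21 by edgeR and of 0.0259 with the mouse as a fixed effect. Zbtb16, a transcription factor gene induced by glucocorticoids, had 0.65 ± 0.23 (adjusted p = 0.327). Ache, which encodes the enzyme that DFP inhibits, had a difference of -0.11 (95% interval -0.42 to 0.20).

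No gene of 4 lists of neuronal communication passed for the difference by edgeR. Towards the hippocampus and the cortex, 5 against 0 of 22 glutamate receptor genes, 3 against 0 of 14 GABA receptor genes, 3 against 0 of 19 voltage-gated channel genes and 3 against 1 of 22 synaptic vesicle and scaffold genes had an unadjusted p under 0.05. Among all genes these shares were 4.93% and 4.95%. In the cortex 5, 3, 2 and 4 of these genes fell, together 14 of 77 (18.2%) against 4.96% of all genes, and 1 rose. In the hippocampus 3, 0, 0 and 0 fell, together 3.9% against 4.08% of all genes, and 2 rose. Gabrg3, a GABA-A receptor subunit, had a difference of 0.49 ± 0.13 (adjusted p = 0.137). Of the 19 neuropeptide and neurotrophin genes, Adcyap1, which encodes the neuropeptide PACAP, had 1.17 ± 0.29 (adjusted p = 0.118) and Scg2, a granin of secretory granules, 0.38 ± 0.10 (adjusted p = 0.113).

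The mitochondrially encoded genes specify subunits of the respiratory chain and ATP synthase. Of 13, 10 fell in the cortex, against 4.96% of all genes, and 0 passed in the hippocampus. For the difference 10 against 0 had an unadjusted p under 0.05 (4.93% and 4.95% of all genes), with a median of 0.51 and all 13 above 0. For mt-Nd4, a complex I subunit, the hippocampal values were 6095, 6222 and 6749.8 CPM after saline and 6573, 6661, 6625 and 6441 CPM after LPS. The cortical values for mt-Nd4 were 7116, 5869 and 6389.5 CPM after saline and 3849, 5384, 3799 and 4625 CPM after LPS. The cortical groups did not overlap. The difference for mt-Nd4 was 0.60 ± 0.16 (adjusted p = 0.152, 0.352 with the mouse as a fixed effect and 0.0377 by DESeq2). These genes are transcribed together and share a library's mitochondrial content, so they are not independent. Mitochondrially encoded counts made up 7.04 to 8.05% of the hippocampal saline and 7.65 to 8.14% of the hippocampal LPS libraries, 8.33 to 9.64% of the cortical saline libraries and 6.54 to 8.15% of the cortical LPS libraries, and the part of this share in the other differences was not tested.

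Of the 12 meningeal and fibroblast markers, genes of the coverings of the brain and of vessel-associated fibroblasts, 5 rose in the hippocampus, where 0 fell, and 4 fell in the cortex, where 0 rose. Of all genes, 4.7% rose in the hippocampus and 4.96% fell in the cortex. For the difference 8 against 0 of the markers had an unadjusted p under 0.05 (4.93% and 4.95% of all genes), the median was 0.82, and all 12 were above 0. Their summed level was 111 to 153 CPM in hippocampus saline, 132 to 212 CPM in hippocampus LPS, 157 to 172 CPM in cortex saline and 107 to 129.9 CPM in cortex LPS. Col1a2, a chain of type I collagen, was at 5.95, 4.07 and 6.2 CPM and then 5.68, 11.7, 7.15 and 11.6 CPM in the hippocampus, and at 17.5, 13.4 and 17.1 CPM and then 11.1, 15.2, 13.5 and 10.05 CPM in the cortex. The groups overlapped in both tissues, and the difference was 1.11 ± 0.25 (adjusted p = 0.0675, 0.166 with the mouse as a fixed effect and 0.00665 by DESeq2). Ogn, a small proteoglycan, had 0.99 ± 0.23 (adjusted p = 0.0788). How much of these differences came with the amount of meninges in a sample was not tested, nor was its part in the difference of Coch. The 12 choroid plexus markers had a median difference of 1.58, with 0 at an unadjusted p under 0.05, and rested on the few libraries named above.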

How the data were processed

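Poly(A)-selected, stranded libraries were sequenced as paired reads of 150 bp, per the labels. The deposited values are whole-number read counts per gene. The submitters' processing notes name GRCm38 as the mouse build and, as tools, STAR 2.6.0a, Trim Galore 0.4.1, DESeq2 and FastQC. Of the counting program, its strand option and the annotation, none is given in the sources used here, so genes with near-identical copies (H2-T23, among others) or overlapping partners are uncertain. Plagl1, Prss23, Camk4, Fbxo7, Klk8, Zap70 and Ramp3 each overlap a gene on the other strand and Sbf1 a microRNA gene on its own strand. Symbols and coordinates (counted from 1) are from GENCODE M21, which named 48144 of 48820 genes (98.6%). Unnamed entries took up to 0.261% of the counts.

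All 30 libraries in 8 groups were fitted together with edgeR 4.0.16 under R 4.3.3 (genes kept by filterByExpr at a count of 10 and a total of 15, TMM factors of 0.957 to 1.05 in the 14 libraries, robust glmQLFit, glmQLFTest), so that the groups shared an estimate of the spread. The contrast was the 12 h LPS change in the hippocampus minus that in the cortex. P values are two-sided and Benjamini-Hochberg adjusted over 17650 genes, with a threshold of 0.05. SE is the log2 value divided by the square root of F. It is unstable where a difference is near 0 and counts are few. For the acute phase gene Saa3 it was 60.8 for the difference, against 1.01 in the hippocampus and 1.07 in the cortex. CPM are edgeR's, with TMM factors. Depth limits genes with few counts most. The labels do not say more of the replicates than the mouse codes. No pair of replicate libraries was within sampling noise (chi-square of 5.17 to 19.5 per gene), so none was treated as deposited in duplicate. Scripts were tested on simulated counts.

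Mouse codes pair the tissues, since samples with the same code come from the same animal. Over 12318 genes, the correlation of the deviations from group means between both tissues of an animal had a median r of 0.109 over 14 pairs (-0.0801 to 0.358) and of 0.142 over the 6 pairs used here. Among these, r was -0.0502 in saline mouse A224 and -0.0801 in saline mouse A226. In the LPS mice A258 to A261 it was 0.0806 to 0.327. The main fit had no block.

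The members and the 38 gene lists were chosen with earlier results of these data known. Genes named are the 12 largest differences in each direction among those that passed (mean log2 CPM no lower than 1, predicted genes left out), genes called in both tissues among them, up to 4 members of each list in order of p, and always Ache, Fkbp5, P2ry12, Gfap, Lcn2, Cxcl10, Ccl2, Tnf and Il1b. Not all are printed.

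Alternatives were DESeq2 size factors, library totals, no filter, a filter of 1 CPM with 10 reads in 4 libraries, DESeq2 1.42.0 as the test, voom of limma 3.58.1 with quality weights, the 14 libraries alone, the mouse as a fixed or random effect, each library left out, 2 pairs of libraries left out, and an absolute log2 value of at least 1. Leaving out 3 libraries with high choroid plexus markers was added after seeing the data.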

Additional observations from a re-analysis of the deposited data

Results flagged for a closer look

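The difference between tissues passed edgeR's test for 17 genes. The log2 difference, hippocampus minus cortex, was 1.27 for Coch, 0.93 for Plagl1, 0.84 for Ier3, 0.80 for Prss23, 0.70 for Camk4, 0.57 for Fbxo7 and 0.53 for Car4. It was -1.41 for Klk8, -1.32 for Zap70, -0.95 for Rprm, -0.91 for Ramp3, -0.79 for Cyth4, -0.69 for Epop, -0.59 for Itpka, -0.45 for Mgat5b, -0.39 for Pfkl and -0.38 for Sbf1.

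Single libraries stood apart from the other 3 of their LPS group by Dixon's criterion, which chance meets in about 1 of 20 groups. Over 29 genes in 2 tissues (58 groups) this was so for Fbxo7 in hippocampus A259 (29.1 CPM), Pfkl and Sbf1 in hippocampus A260 (300.4 and 285 CPM), Cxcl10 in cortex A261 (7.33 CPM) and Gfap in hippocampus A259 (608 CPM). Among summed markers it was so for striatal neuron markers in hippocampus A261 (189.7 CPM) and cortex A258 (463 CPM), and for choroid plexus markers in hippocampus A261 (2492 CPM) and cortex A258 (365 CPM).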

How the results depend on the processing

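No gene that passed changed sign in any fit run, but the count of 7 genes towards the hippocampus and 10 towards the cortex moved, and the cause was not tested. The counts were 42 and 35 by DESeq2, 73 and 74 by limma-voom with quality weights, 18 and 14 with the mouse as a random effect (replicate block), and 6 and 2 with the mouse as a fixed effect (replicate block), which could not be fitted to the change within a tissue. They were 3 and 7 with DESeq2 size factors and 4 and 13 with library totals. Without a filter they were 11 and 9 (32872 genes tested), and in the 14 libraries alone 0 and 1 (17430 tested). Without hippocampus A222 and A261 they were 1 and 2. Without hippocampus A222 and cortex A223 they were 0 and 0 (1566 genes at an unadjusted p under 0.05). They were 1 and 2 without A222, A261 and cortex A224, and 1 and 2 with an absolute log2 value of at least 1. Each library left out in turn gave 0 to 25 and 2 to 10.

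Counts within a tissue moved as follows. Hippocampal rises (830) were 1265 by limma-voom, 546 without A222 and A261 and 333 at an absolute log2 value of at least 1, and falls (721) were 454 with library totals, 1417 by limma-voom, 479 in the 14 libraries alone, 299 without A222 and A261, 340 without A222 and A223, 297 without the 3 libraries and 78 at the larger fold. Cortical rises (1048) were 2054 with library totals, 676 without A222 and A223 and 334 at the larger fold, and falls (875) were 492 with library totals and 78 at the larger fold. Each library left out in turn gave hippocampal rises of 598 to 883 and falls of 432 to 749 (lowest without saline A222), and cortical rises of 682 to 1082 and falls of 521 (without saline A226) to 1325 (without LPS A259).

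Over the 17 genes, 219 of 442 alternative values kept their sign but missed the threshold, and the others stayed past it. In 153 other named genes 38 of 3946 values came to pass, and counts of called list members rose above 0 in 30 of 988. Sign changes of genes that passed under neither setting were not counted.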
